A study of Mus musculus with 6 samples.

Results

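Differentiating spermatogonia are the germ cells that have left the stem and progenitor pool and divide several times before they enter meiosis. Transcripts of 10 genes linked to these cells were followed in the testis at postnatal day 14, in mice with and without a conditional deletion of Rif1. The genes (Kit, Sohlh1, Sohlh2, Lhx8, Dmrtb1, Rhox13, Esx1, Dnmt3b, Scml2 and Uchl1) were chosen by symbol, and all 10 were found among the 50763 symbols of the deposited table and tested. RNA came from whole testes of 3 wild-type samples (WT) and 3 samples labelled sKO, in which Rif1 was deleted conditionally in pre-meiotic germ cells according to the series title. The series design text calls the WT samples normal controls; the Cre driver, the floxed exons, the strain and whether a sample pools animals are not given in these sources. RIF1 controls the timing of DNA replication and acts at broken DNA ends.

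Retinoic acid moves spermatogonia from the undifferentiated to the differentiating state, in which the receptor tyrosine kinase KIT appears on the cell surface and answers to KIT ligand from Sertoli cells. The paired helix-loop-helix factors SOHLH1 and SOHLH2 drive this step and act on Kit and Lhx8. DNA methylation enzymes and germ cell Polycomb proteins are active in the same cells. At day 14 of the first wave of spermatogenesis the testis holds Sertoli cells, spermatogonia and spermatocytes up to pachytene.

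Total counts per library were between 15941672 and 18296594, so that 3 counts, the limit that a count of 0 allows, corresponded to 0.165 to 0.187 CPM (read counts over a common library total scaled with TMM factors; this limit covers counting error only). The targeted gene, Rif1, stood at 96.5, 83.7 and 129 CPM in WT libraries 1 to 3 and at 42.0, 46.4 and 49.2 CPM in sKO libraries 1 to 3 (log2 fold change -1.17, SE 0.15, edgeR adjusted p = 0.0145). That adjusted p was 0.137 when WT library 2 was left out, 0.0618 when sKO library 1 was and 0.1203 when sKO library 2 was. In those fits edgeR called 0 of all genes tested lower and 0 higher. The Rif1 estimates there were -1.30, -1.13 and -1.17, with unadjusted edgeR p of 8.7e-06, 5.1e-05 and 9.4e-05. With limma-voom on all 6 libraries the adjusted p of Rif1 was 0.0522. Rif1 RNA in sKO was at 0.445 times the WT level, and which cells held it was not tested. WT library 1 and sKO library 3 stood apart from the rest of their groups on the first principal component, and sKO library 1 held epididymis and duct markers at a summed 195 CPM against 11.0 to 34.5 CPM in the other 5 libraries. Whether the samples of 1 group are separate mice is not stated in the labels, and p-values reflect the spread among the 6 libraries, part or all of which may be technical. In RNA of whole testes fewer cells of a type and less RNA per cell cannot be told apart.

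None of the 10 genes passed the test between sKO and WT. edgeR called 0 lower and 0 higher at an adjusted p under 0.05 over all 18860 genes tested, of which 1.27% were called lower and 0.0318% higher. DESeq2 also called 0 of the 10 (3.82% and 0.297% of all genes), and so did limma-voom (0% of all genes). At an unadjusted p under 0.05 edgeR gave 1 of the 10 lower (Dmrtb1) and 0 higher, beside 8.54% and 5.06% of all genes tested. That count was 0 lower with limma-voom, without robust estimation and when WT library 2, sKO library 1 or sKO library 2 was left out, and without WT library 2 there was 1 higher instead (Esx1, unadjusted p = 0.0376, edgeR adjusted p = 0.322). The libraries of the groups overlapped for each of the 10 genes. Over all genes tested 20.2% had groups that did not overlap (10.7% lower and 9.58% higher in sKO). A list of 10 is too short to be told apart from that share. The median log2 fold change of the 10 was 0.08, against 0.03 over all genes tested, with 8 estimates above 0 and 2 below; 44.7% of all genes tested had estimates below 0.

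**Figure D1:**
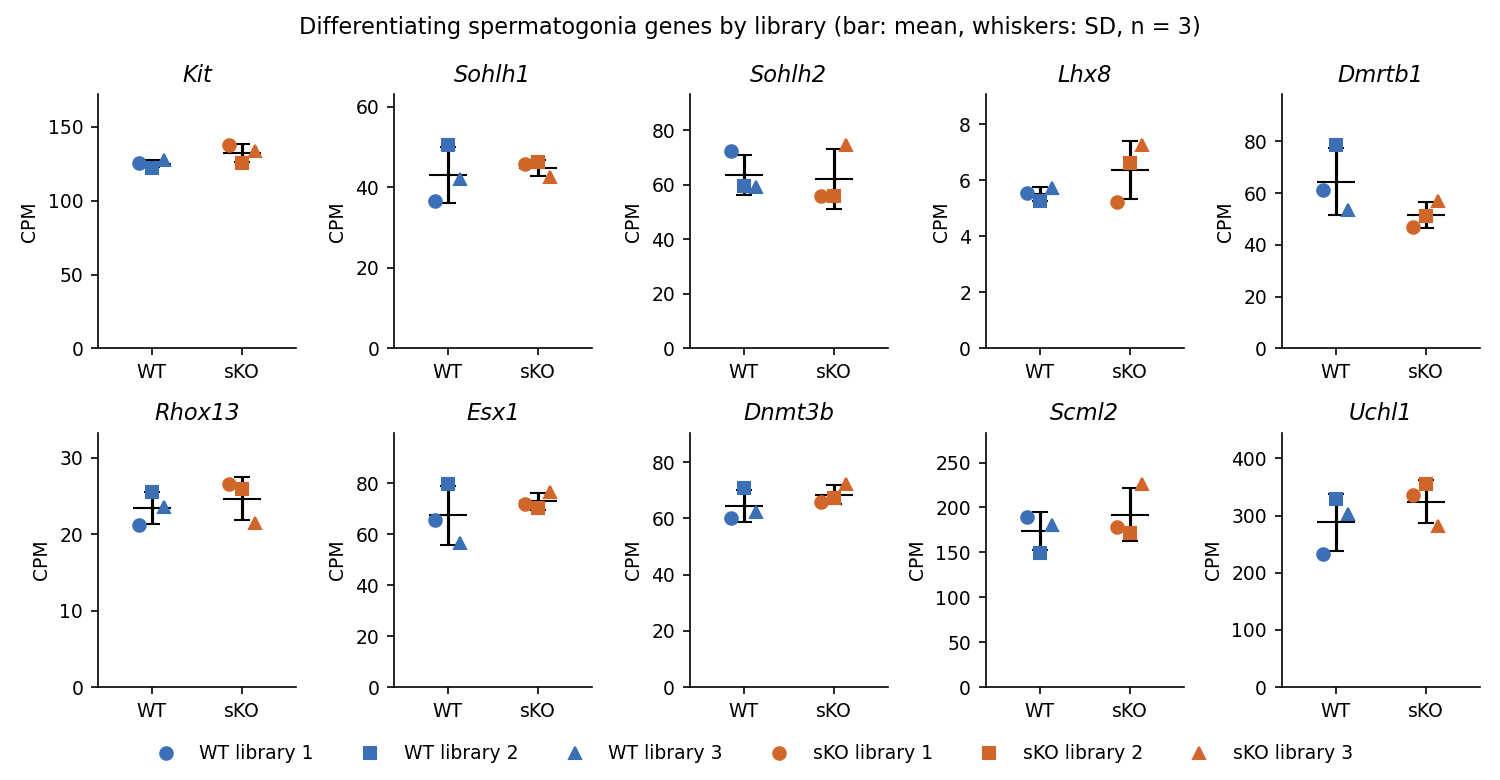
Level of each of the 10 genes in CPM (vertical axes from 0) in the 3 WT (blue) and 3 sKO (orange) libraries, with marker shape for the library number, a bar for the mean and whiskers for the SD. WT and sKO points overlap in each panel, and Dmrtb1 has the lowest sKO mean relative to WT, with WT library 2 at 78.6 CPM.

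Kit, the surface receptor that marks these cells, was the steadiest of the 10 in WT. It stood at 125, 122 and 127 CPM in WT libraries 1 to 3 and at 138, 126 and 134 CPM in sKO libraries 1 to 3. The sKO range began within the WT range and reached above it. WT averaged 125.0 ± 2.51 CPM and sKO 132 ± 6.14 CPM (SD, n = 3 each), and the log2 fold change was 0.08 (SE 0.08, 95% interval -0.10 to 0.27, edgeR adjusted p = 0.716). The interval thus covered levels in sKO from 0.931 to 1.20 times those of WT. Exact permutation over the 3 WT and 3 sKO libraries (two-sided) gave p = 0.2, where 0.1 is the smallest that this design allows. Counts are per gene symbol, so the full receptor and the short germ cell transcript of Kit cannot be told apart.

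The helix-loop-helix factor Sohlh1 stood at 36.5, 50.6 and 42.2 CPM in WT libraries 1 to 3 and at 45.7, 46.4 and 42.7 CPM in sKO libraries 1 to 3. All 3 sKO libraries lay inside the WT range (log2 fold change 0.06, SE 0.13, 95% interval -0.22 to 0.34, edgeR adjusted p = 0.876). Its partner Sohlh2 stood at 72.2, 59.5 and 59.2 CPM in WT and at 55.8, 55.9 and 74.6 CPM in sKO. WT library 1 and sKO library 3 were the high ones, and the other 4 libraries differed little (log2 fold change -0.04, SE 0.14, 95% interval -0.34 to 0.27, edgeR adjusted p = 0.937).

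Lhx8, a LIM-homeobox gene that acts downstream of the SOHLH factors in germ cells, was the lowest of the 10, with 87 to 132 counts per library. It stood at 5.55, 5.24 and 5.72 CPM in WT and at 5.23, 6.60 and 7.26 CPM in sKO. sKO libraries 2 and 3 were above all WT libraries and sKO library 1 was at the bottom of the WT range. Its interval was the widest of the 10 (log2 fold change 0.21, SE 0.19, 95% interval -0.22 to 0.64, edgeR adjusted p = 0.684). Counting error alone gave a coefficient of variation of 9.93% for Lhx8, against 1.39% for Uchl1, the most abundant of the 10. The spread of Lhx8 between libraries was 4.40% in WT and 16.3% in sKO, below and above that value for counting error. A spread from 3 libraries is itself uncertain, and the difference from counting error was not tested.

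Dmrtb1 is a DM-domain transcription factor that regulates the passage of spermatogonia from mitosis to meiosis. It had the lowest estimate of the 10, at 61.1, 78.6 and 53.5 CPM in WT libraries 1 to 3 and 47.0, 51.0 and 56.8 CPM in sKO libraries 1 to 3. sKO libraries 1 and 2 were below all WT libraries and sKO library 3 lay between WT libraries 3 and 1. The group levels were 64.4 ± 12.9 CPM and 51.6 ± 4.94 CPM (SD, n = 3 each), with a log2 fold change of -0.32 (SE 0.14, 95% interval -0.63 to -0.0051). The unadjusted edgeR p was 0.0470 and the adjusted p 0.359, and the exact permutation p (two-sided) was 0.2. Without WT library 2, the highest, the log2 fold change was -0.15 (edgeR adjusted p = 0.584).

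The homeobox genes Rhox13 and Esx1 and the Polycomb gene Scml2 lie on the X chromosome, which is silenced in pachytene spermatocytes. Rhox13, whose protein appears in differentiating germ cells, stood at 21.3, 25.5 and 23.6 CPM in WT and at 26.6, 25.9 and 21.5 CPM in sKO. The groups shared most of their range (log2 fold change 0.07, SE 0.13, 95% interval -0.22 to 0.37, edgeR adjusted p = 0.856). Esx1, a homeobox gene of testis and placenta, stood at 65.7, 79.8 and 56.6 CPM in WT and at 71.8, 70.1 and 76.6 CPM in sKO. All 3 sKO libraries were inside the WT range, and the WT libraries spread 1.41-fold against 1.09-fold in sKO (log2 fold change 0.11, SE 0.13, 95% interval -0.16 to 0.39, edgeR adjusted p = 0.746). The Esx1 estimate was 0.25 without WT library 2, 0.0034 without WT library 3 and 0.039 without sKO library 3. Scml2, which encodes a germ cell partner of Polycomb repressive complex 1, stood at 190, 150 and 181 CPM in WT and at 179, 171 and 227 CPM in sKO. sKO library 3 was the only one above the WT range (log2 fold change 0.15, SE 0.13, 95% interval -0.14 to 0.43, edgeR adjusted p = 0.661), and without it the estimate was -0.02.

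The 3 X-linked estimates (0.07, 0.11 and 0.15) were set beside the other genes of that chromosome. Of 737 X-linked genes tested edgeR called 0 lower and 0 higher, an unadjusted p under 0.05 was reached by 1 lower and 72 higher genes, and DESeq2 called 0 lower and 2 higher. Their median log2 fold change was 0.15, and 18.2% had lower estimates in sKO. Over 17257 autosomal genes tested the median was 0.03, and 45.4% had lower estimates. Of these autosomal genes edgeR called 222 lower and 6 higher, and 1528 lower and 859 higher reached an unadjusted p under 0.05. DESeq2 called 680 autosomal genes lower and 53 higher. Rhox13 and Esx1 lay below the median of their chromosome and Scml2 at about it. The order depended on single libraries: without WT library 2 Esx1 was at 0.25 and the X-linked median at 0.13, and without WT library 1, sKO library 1 or sKO library 2 Scml2 was at 0.22, 0.18 and 0.23 and the median at 0.15, 0.12 and 0.16.

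Dnmt3b, a DNA methyltransferase that sets new methylation marks, stood at 60.2, 70.9 and 62.4 CPM in WT and at 65.8, 67.1 and 72.4 CPM in sKO. Of the sKO libraries 2 lay inside the WT range and sKO library 3 just above it (log2 fold change 0.09, SE 0.10, 95% interval -0.14 to 0.31, edgeR adjusted p = 0.762). Uchl1, a ubiquitin hydrolase found in spermatogonia of all kinds, and also in Leydig cells and neurons, stood at 233, 329 and 303 CPM in WT and at 336, 356 and 282 CPM in sKO. WT library 1 was the lowest of the 6 and sKO library 3 the next lowest. The log2 fold change of Uchl1 was 0.17 (SE 0.13, 95% interval -0.13 to 0.47, edgeR adjusted p = 0.622), and it was 0.04 without WT library 1. An antisense gene, Uchl1os, shares 295 exon bases with Uchl1 in the GENCODE annotation of GRCm38, and the strand setting of the counts is not given in these sources, so reads of the pair cannot be told apart. The other 9 genes share no exon bases with a neighbour in that annotation.

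**Figure D2:**
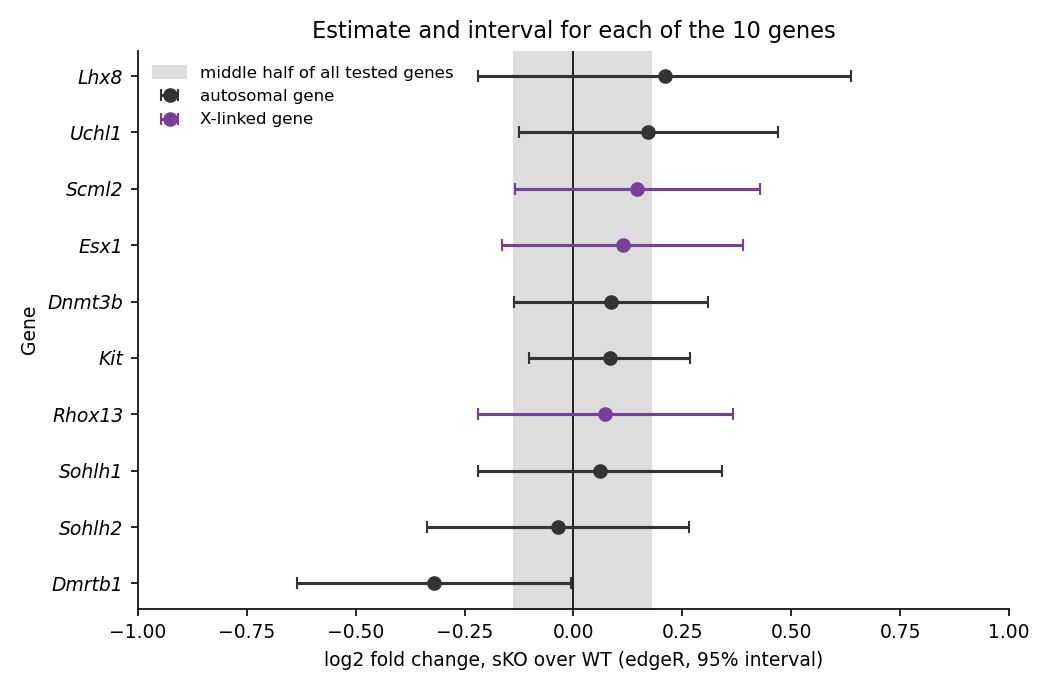
Log2 fold change of sKO over WT for each gene (points) with its 95% interval from edgeR (bars), X-linked genes in purple, and the interquartile range of all genes tested in grey. Intervals of 9 of the 10 genes include 0, and that of Dmrtb1 ends at -0.0051.

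Each of the 10 intervals lay within 1 log2 unit of 0, as did those of 77.0% of all genes tested. The half-widths ran from 0.19 for Kit to 0.43 for Lhx8, with a median of 0.29 against 0.36 over all genes tested. Changes of 2-fold in either direction were therefore outside every interval, while smaller ones, such as a level of Lhx8 1.56 times as high or a level of Dmrtb1 1.55-fold lower, were inside. A p that misses the threshold does not show that the levels were equal.

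Exon length was taken as the union of all annotated exons of a gene, which can exceed the length of any single transcript. The order below depends on that choice. Scaled by exon length, the order of the genes in WT ran from Uchl1 at 177 ± 30.3 CPM per kilobase down to Lhx8 at 2.17 ± 0.0956 (SD, n = 3). Below Uchl1 came Esx1 (33.9 ± 5.90), Sohlh1 (33.4 ± 5.48), Dmrtb1 (30.9 ± 6.17), Scml2 (28.6 ± 3.47), Sohlh2 (26.9 ± 3.15) and Rhox13 (26.7 ± 2.40), a run in which each gene overlapped the next. Kit, whose exons cover 8.91 kilobases, followed at 14.0 ± 0.281 CPM per kilobase and overlapped Dnmt3b at 12.6 ± 1.11. Only the steps from Uchl1 to Esx1, from Rhox13 to Kit and from Dnmt3b to Lhx8 were larger than the spread of the WT libraries. In sKO the gaps stood below Uchl1, above Kit and above Lhx8 again, and Dmrtb1 was the seventh instead of the fourth gene, at 24.8 ± 2.37 CPM per kilobase (SD, n = 3).

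**Figure D3:**
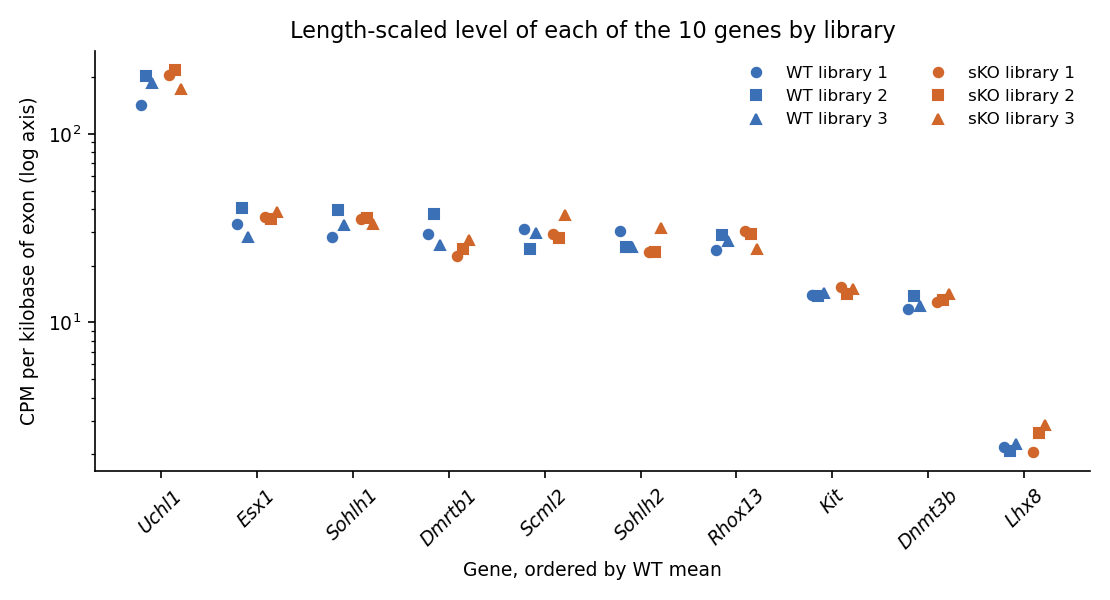
Level of each gene per kilobase of exon (log axis) in the 3 WT (blue) and 3 sKO (orange) libraries, ordered by the WT mean. Uchl1 stands alone at the top and Lhx8 at the bottom, with 6 genes between 24.3 and 40.2 CPM per kilobase in WT.

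Within the groups the genes did not vary together. Scml2 and Sohlh2 were highest in WT library 1 and sKO library 3, at 0.14 and 0.19 (log2 CPM relative to the mean of the own group) in the first and 0.25 and 0.28 in the second. Uchl1, Sohlh1 and Rhox13 were lowest in the same libraries, at -0.29, -0.23 and -0.14 in WT library 1 and -0.20, -0.07 and -0.19 in sKO library 3. The level of Sohlh2 relative to that of Sohlh1 was accordingly 1.98 and 1.75 in these 2 libraries and between 1.18 and 1.40 in the other 4, a ratio chosen after the values were seen. Esx1 and Dmrtb1 were highest in WT library 2 (0.26 and 0.31) and lowest in WT library 3 (-0.24 and -0.25). Sohlh1, Uchl1, Dnmt3b and Rhox13 also had their highest WT value in library 2, at 0.24, 0.21, 0.14 and 0.12. Scml2, Sohlh2, Lhx8 and Kit were below their WT mean in that library, at -0.21, -0.09, -0.07 and -0.03.

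Other cell types also differed between those libraries. The summed level of 16 genes of meiotic entry and early prophase was 0.30 above the group mean (log2) in WT library 1 and 0.34 above it in sKO library 3, and below it in the other 4 libraries. That of 16 pachytene genes was 0.56 above the group mean in WT library 1 and 0.52 above it in sKO library 3, and lowest in WT library 3 (-0.54) and sKO library 1 (-0.36). The summed level of 20 undifferentiated spermatogonia markers stayed within 0.07 of the group mean in every library, and that of 20 Sertoli markers was lowest in WT library 1 and sKO library 3 (-0.09 and -0.11). The part of these differences in the values of the 10 genes was not tested. Without WT library 1 and sKO library 3 (a choice made after seeing the data) edgeR again called 0 of the 10, with 1 lower and 0 higher at an unadjusted p under 0.05, and the median log2 fold change was 0.04.

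**Figure D4:**
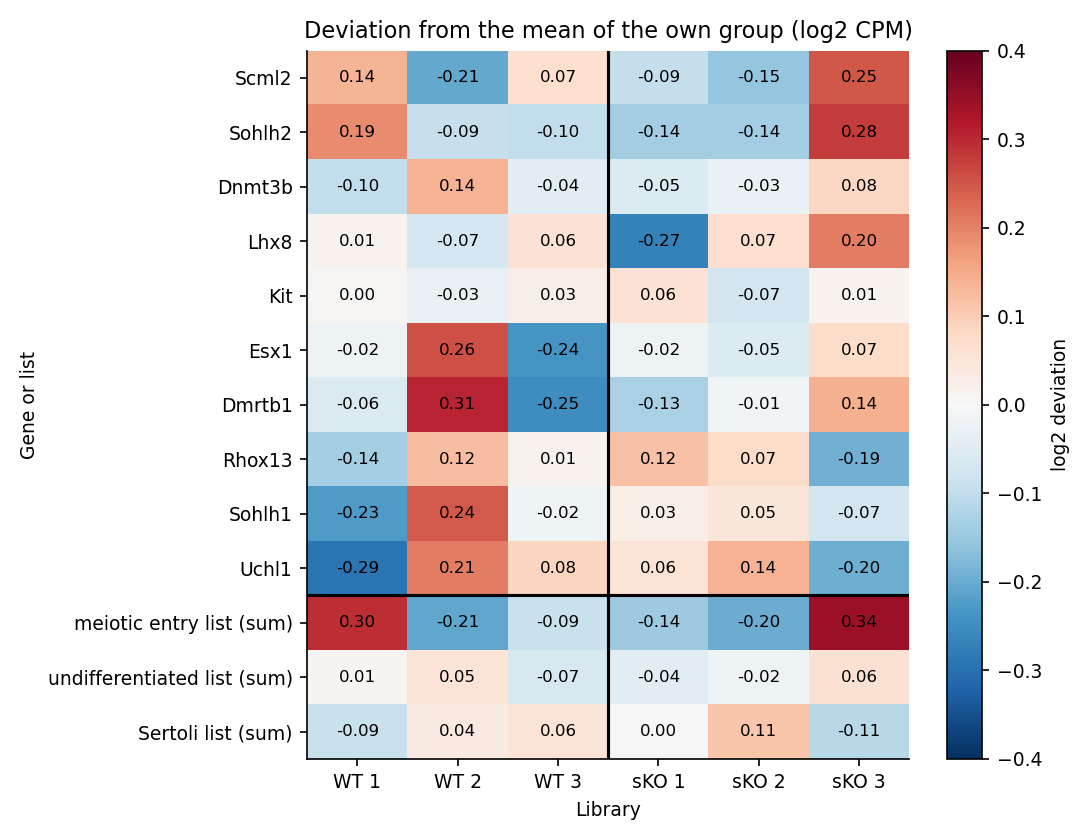
Log2 CPM of each gene relative to the mean of its own group in each library (colour and printed value), with the summed levels of 3 marker lists below the line. Scml2 and Sohlh2 are red in WT library 1 and sKO library 3, as is the meiotic entry list, where Uchl1, Sohlh1 and Rhox13 are blue.

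Genes that work with the 10 were examined next, by role. The counts of each list are to be read beside all genes tested. Of those, 8.54% were lower and 5.06% higher at an unadjusted edgeR p under 0.05. The list of KIT ligand and its signalling chain had 0 of 38 genes called by edgeR, with 3 lower and 3 higher at an unadjusted p under 0.05 and a median log2 fold change of 0.04. DESeq2 and limma-voom called 0 as well. The 3 smallest p-values belonged to Cbl, a ubiquitin ligase that turns receptor kinases over (log2 fold change -0.34, SE 0.10, edgeR adjusted p = 0.137), to the kinase Pdpk1, which activates AKT (-0.30, adjusted p = 0.205), and to the adaptor Sh2b3, an inhibitor of KIT signals (-0.33, adjusted p = 0.266). Kitl, the ligand, named for its role and not by its p, stood at 152, 101 and 146 CPM in WT and at 162, 152 and 160 CPM in sKO. WT library 2 was the low one, and the groups overlapped (log2 fold change 0.25, SE 0.14, edgeR adjusted p = 0.484).

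Relatives of Dmrtb1, Dnmt3b, Scml2, Rhox13 and Uchl1 gave 1 call. In the DM-domain family edgeR called 1 of 7 genes lower and 0 higher, with 1 lower and 2 higher at an unadjusted p under 0.05. The called gene was Dmrtc2, a DM-domain gene needed in pachytene spermatocytes, which stood at 76.0, 64.2 and 53.5 CPM in WT and at 28.2, 26.6 and 41.0 CPM in sKO. The groups did not overlap, and the fall of Dmrtc2 passed the test (log2 fold change -1.02, SE 0.18, edgeR adjusted p = 0.0314). Dmrtc2 lost its call when WT library 1 or 2 was left out (edgeR adjusted p = 0.0670 and 0.157) and when sKO library 1 or 2 was (0.109 and 0.178). Its estimates in those fits were -0.88, -1.02, -0.95 and -0.90. On all 6 libraries its adjusted p was 0.0537 with limma-voom and 0.135 in edgeR with a block for the replicate number. The 2 higher estimates were those of Dmrt2, whose WT libraries held 0.505, 1.12 and 0.808 CPM and whose sKO libraries held 1.44, 1.39 and 1.48 CPM without overlap (log2 fold change 0.83, edgeR adjusted p = 0.348), and of Dmrta1 (0.28, adjusted p = 0.340). Dmrt1, which keeps spermatogonia in mitosis and is also made in Sertoli cells, had a log2 fold change of 0.19 (edgeR adjusted p = 0.437); it was named for its role.

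Of 16 DNA methylation enzymes and partners edgeR, DESeq2 and limma-voom called 0, with 1 lower and 0 higher at an unadjusted edgeR p under 0.05 and a median of 0.06. The lower one was Mbd3, a subunit of the NuRD repressor complex (log2 fold change -0.26, edgeR adjusted p = 0.322). Dnmt3a and Dnmt3c, the other two methyltransferases for new marks, had log2 fold changes of 0.14 and 0.26 (edgeR adjusted p = 0.546 and 0.533), and Dnmt3l, their cofactor in fetal germ cells, was at most 1.71 CPM in any library; these 3 were named for their roles. In Polycomb repressive complex 1 edgeR called 0 of 29 genes, with 5 lower and 1 higher at an unadjusted p under 0.05, and the median was 0.0046. DESeq2 called 1 lower there, Pcgf6, a subunit of a variant complex that silences germline genes in other cells, for which WT held 68.5 ± 23.4 CPM and sKO 42.3 ± 7.73 CPM (SD, n = 3 each), with an adjusted p of 0.211 in edgeR and 0.0209 in DESeq2.

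Of 28 other Rhox cluster genes 14 passed the filter on low counts, and edgeR called 0, with 0 in either direction at an unadjusted p under 0.05, and neither DESeq2 nor limma-voom called any. Several of these genes are near-identical copies, so their counts are uncertain. Of 4 other ubiquitin C-terminal hydrolases 0 were called by edgeR or DESeq2, and 0 had an unadjusted edgeR p under 0.05. Among 16 tested helix-loop-helix, LIM-homeobox and oocyte-shared factors edgeR called 0, with 2 lower and 1 higher at an unadjusted p under 0.05. The higher one was Nobox, a homeobox gene of oocytes, at 2.19, 2.06 and 1.93 CPM in WT and 3.84, 4.12 and 3.46 CPM in sKO. All sKO libraries lay above all WT libraries at this low level (log2 fold change 0.88, SE 0.23, edgeR adjusted p = 0.0901), as for 9.58% of all genes tested. Id4, an inhibitor of helix-loop-helix factors and a stem spermatogonia marker, had a log2 fold change of -0.69 (edgeR adjusted p = 0.1996, DESeq2 adjusted p = 0.0377), against higher estimates for 15 of the 18 tested markers of undifferentiated spermatogonia.

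A wider list of 26 genes reported in differentiating spermatogonia or expressed alongside them had 24 genes tested and 0 called by edgeR. At an unadjusted p under 0.05 there were 2 lower and 3 higher, DESeq2 called 1 lower, 16 estimates were higher and 8 lower, and the median was 0.14. The higher ones were Hmgn5, an X-linked nucleosome-binding protein whose groups did not overlap (log2 fold change 0.27, edgeR adjusted p = 0.289), the cyclin Ccnd2 (0.35, adjusted p = 0.317) and Mageb4 (0.27, adjusted p = 0.317); the last 2 lie outside the naming rule and were chosen after their values were seen. The lower ones were the germ cell helicase Ddx4, for which WT held 342 ± 100.5 CPM and sKO 209 ± 35.6 CPM (SD, n = 3 each; adjusted p of 0.143 in edgeR and 0.00381 in DESeq2), and the testis protease Prss50 (log2 fold change -0.38, edgeR adjusted p = 0.257). Ddx4 is also made in spermatocytes. Stra8, which retinoic acid induces and which starts meiosis, was named for its role and had a log2 fold change of 0.02 (edgeR adjusted p = 0.975).

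Genes of the stages before and after were set beside the 10 in the same fit. Over all genes tested edgeR called 1.27% lower and 0.0318% higher, with 8.54% lower and 5.06% higher at an unadjusted p under 0.05. Groups did not overlap for 10.7% lower and 9.58% higher, and DESeq2 called 3.82% lower and 0.297% higher. Of 18 tested undifferentiated spermatogonia markers edgeR called 0, with 1 lower and 2 higher at an unadjusted p under 0.05, and the median log2 fold change was 0.19 (0.08 without sKO library 3). Estimates were higher for 15 and lower for 3, groups did not overlap for 4 higher and 1 lower, and DESeq2 called 1 lower, Id4. Of 16 genes of meiotic entry and early prophase edgeR called 1 lower and 0 higher, the median was -0.41, and 12 estimates were lower. At an unadjusted edgeR p under 0.05 there were 6 lower and 0 higher, and groups did not overlap for 5 lower and 0 higher. DESeq2 called 4 lower and limma-voom 0. Leaving out WT libraries 1, 2 and 3 in turn gave edgeR counts of 1, 0 and 1 and medians of -0.23, -0.55 and -0.49, and leaving out sKO libraries 1, 2 and 3 gave 0, 0 and 6 and -0.32, -0.31 and -0.68. The gene called by edgeR was Spo11, which makes meiotic double-strand breaks (log2 fold change -0.99, SE 0.16, edgeR adjusted p = 0.0253). Its adjusted p was 0.137 when WT library 2 was left out, 0.0901 when sKO library 1 was and 0.1704 when sKO library 2 was. The Spo11 estimates in those fits were -1.03, -0.90 and -0.97. On all 6 libraries its adjusted p was 0.0535 with limma-voom and 0.107 in edgeR with a block for the replicate number. Of 14 tested pachytene genes edgeR called 4 lower and 0 higher, with a median of -1.74. There were 11 lower and 0 higher at an unadjusted edgeR p under 0.05, and groups did not overlap for 10 lower and 0 higher. DESeq2 called 9 pachytene genes lower and limma-voom 0. Leaving out WT libraries 1, 2 and 3 in turn gave edgeR pachytene counts of 2, 0 and 7, and leaving out sKO libraries 1, 2 and 3 gave 0, 0 and 7. The lists share libraries and were not tested against each other.

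**Figure D5:**
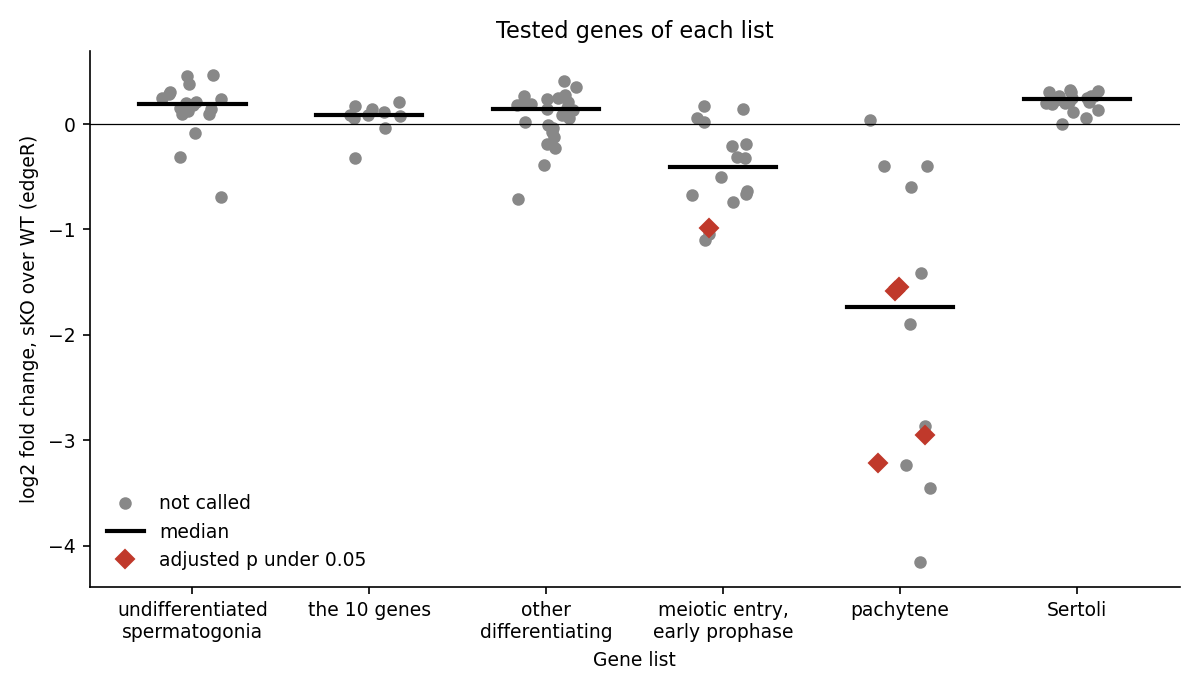
Log2 fold change of sKO over WT (edgeR) for each tested gene of 6 lists, with the list median as a bar and genes past the threshold as red diamonds. The 10 genes lie between -0.32 and 0.21 with no diamond, and the pachytene list reaches -4.16.

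Kit and Uchl1 are also made outside the germ line, so markers of those cells were read beside them. Leydig markers summed to 431 to 580 CPM in WT and 605 to 734 CPM in sKO, with 0 of 12 called by edgeR, 0 lower and 2 higher at an unadjusted p under 0.05, and a median of 0.21. The largest Leydig difference was that of Cyp17a1, a steroidogenic enzyme, at 11.8 to 26.2 CPM in WT and 25.9 to 80.2 CPM in sKO. Mast cell markers, of which 2 of 9 were tested, summed to 37.8 to 46.8 CPM in WT and 40.8 to 47.9 CPM in sKO. Most of that sum was Hdc, an enzyme that other cells also make (WT 36.5 ± 4.11 CPM, sKO 35.8 ± 2.15 CPM; SD, n = 3 each), whereas Fcer1a had a count of 0 in all 6 libraries and Cpa3 and Cma1 were at most 0.541 and 0.841 CPM. Nerve and glia markers summed to 300.4 to 313 CPM in WT and 339 to 371 CPM in sKO, with 0 of 9 tested called by edgeR and 0 lower and 2 higher at an unadjusted p under 0.05. Sertoli markers summed to 8063 to 8920 CPM in WT and 9452 to 11021 CPM in sKO, with 0 of 20 called by edgeR. All 20 Sertoli estimates were higher, with a median of 0.23. At an unadjusted edgeR p under 0.05 there were 0 lower and 9 higher, beside 8.54% and 5.06% of all genes tested. Groups did not overlap for 0 lower and 9 higher Sertoli markers, beside 10.7% and 9.58% of all genes tested. In these 4 lists DESeq2 and limma-voom called 0 genes. The part of the Leydig, nerve and Sertoli differences in the values of Kit and Uchl1 was not tested.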

How the data were processed

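Whole-testis mRNA, captured with oligo-dT beads per the labels' protocols, was sequenced for 3 WT and 3 sKO samples. The authors deposited 1 table of raw read counts per gene symbol. Per the submitters' processing notes, Trim Galore, HISAT2 and featureCounts were used with genome build mm39; versions, annotation and strand setting: not given in the sources used here. Columns named con and scKO were read as WT and sKO by replicate number. Counts were fitted in R 4.3.3 with edgeR 4.0.16 (filterByExpr, TMM factors, robust quasi-likelihood F test, no covariates), with Benjamini-Hochberg adjustment over all 18860 genes tested and a threshold of 0.05. SE and 95% intervals were derived from the F statistic. DESeq2 1.42.0 and limma-voom (limma 3.58.1) were alternatives. The scripts were tested on simulated data.

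The 10 genes, the other lists and the tests were chosen with earlier results of these data known. From each other list the called genes and up to 3 with the smallest p were eligible to be named; genes named for a role are marked. Exon lengths came from GENCODE M21 and chromosomes from RefSeq (GRCm38; 90.8% of symbols matched), so no coordinates are given. Samples sharing a number were not taken as pairs. No sequence is printed, since no result rests on one.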

Additional observations from a re-analysis of the deposited data

How the results depend on the processing

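In all 17 alternatives (2 other tools, 3 scalings, 2 filters, no robust estimation, a replicate block, each library left out, and 2 pairs left out that were chosen after seeing the data) 0 of the 10 genes were called lower and 0 higher. At an unadjusted p under 0.05 the count lower was 1 as reported and 0 or 1 elsewhere (0 with the replicate block and without both libraries numbered 1 as well). Their median log2 fold change was 0.04 to 0.15 with each library left out and 0.04 to 0.09 otherwise. Estimates of 4 genes changed sign when a library was left out, with ranges of -0.046 to 0.19 for Sohlh1, -0.22 to 0.066 for Sohlh2, -0.0055 to 0.14 for Rhox13 and -0.022 to 0.23 for Scml2. Without WT library 1 and sKO library 3 Sohlh1 was at -0.035 and Dnmt3b at -0.030; without both libraries numbered 1 Sohlh1 was at -0.074, Sohlh2 at 0.12, Rhox13 at -0.066 and Uchl1 at 0.000063. The cause of these sign changes was not tested.

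Calls elsewhere were less stable. Among genes of the other lists 6 were called, and 17 with DESeq2, 0 with limma-voom, 15 without the filter on low counts, 10 without robust estimation, 0 with the replicate block, 23 without WT library 1 and sKO library 3 and between 0 and 14 with each library left out; at an unadjusted p under 0.05 there were 56, and 59 with limma-voom and 37 with the block. Over all genes 240 were called lower and 6 higher, against 721 and 56 with DESeq2, 0 and 0 with limma-voom (1598 and 932 at an unadjusted p under 0.05), 992 and 154 without the filter, 691 and 55 without WT library 1 and sKO library 3, 155 and 5 without both libraries numbered 1, and 0 to 624 lower and 0 to 31 higher with each library left out. With the replicate block the all-gene counts were 21 lower and 0 higher. Whether shared numbers mark pairs is not stated in the labels. Deviations of same-numbered libraries correlated at -0.34, 0.12 and -0.28. Only sKO library 2 correlated best with the library of its own number in the other group. The largest correlation was 0.45, of WT library 1 with sKO library 3. Deviations from means of 3 libraries also carry other differences between samples, so these correlations cannot decide the question. Without the filter 32.5% of X-linked estimates were lower.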
